A study of Mus musculus with 14 samples.

Results

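The apelin and adrenomedullin systems are described here through 7 genes, of 19938 genes measured: the apelin receptor gene Aplnr, its ligand gene Apln, the calcitonin receptor-like receptor gene Calcrl, the receptor activity-modifying protein genes Ramp1, Ramp2 and Ramp3, and the adrenomedullin gene Adm. Each was read from the probe set that the platform annotation gives to that symbol alone, and each of the 7 had 1 such probe set. A further probe set, annotated to Ramp2 together with Malat1, was not used. RNA came from mouse embryonic stem (ES) cells grown into embryoid bodies, which are floating clumps where early mesoderm arises and then blood and vessel precursors, and was profiled on 14 Affymetrix arrays in 6 groups. Induced cells were given 1 µg/ml doxycycline from day 2 and were sampled on day 2.25 after 6 h (1 array), on day 2.5 after 12 h (3 arrays) and on day 3 after 24 h (3 arrays). Their genotype is labelled as co-expression of ER71 (encoded by Etv2), GATA2 and Scl (encoded by Tal1). Control cells of the same lines had no doxycycline and were taken on day 2.25 (1 array), day 2.5 (3 arrays) and day 3 (3 arrays), and their genotype is labelled wild-type. Replicates 1 and 2 are of the line iEGS and replicate 3 is of the line iB1, in every group with 3 arrays. Before differentiation both lines were cultured on a PMEF feeder layer. No group had doxycycline without the inducible factors, so an effect of the drug itself cannot be told apart from that of the factors.

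Apelin and a second peptide, encoded by Apela (also called Elabela or Toddler), bind the same G protein-coupled receptor, encoded by Aplnr. This receptor is known for guiding mesoderm and heart precursor cells during gastrulation and for vessel growth. Calcrl encodes a receptor that works only with a RAMP partner at the cell surface. With RAMP2 or RAMP3 it binds adrenomedullin, and with RAMP1 it binds calcitonin gene-related peptide. In mice, adrenomedullin, Calcrl and Ramp2 are each needed for vessel development.

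The doxycycline response was present in the arrays. Etv2, Gata2 and Tal1 were 2.09 to 4.38 higher on the log2 scale after 6 h, and rose by 2.48 to 4.44 at 12 h and by 1.94 to 3.95 at 24 h (limma adjusted p at or below 4.9e-05). Replicate 3 of the induced 24 h group stood apart, with a mean correlation of 0.966 with the other arrays, against 0.976 to 0.986 for the rest. The induced 24 h group also varied most, with a root mean square log2 difference between its arrays of 0.371 to 0.615, against 0.236 to 0.416 within the other groups of 3. Values are the deposited log2 signals, and 1 unit is a 2-fold difference. Changes are given with standard errors from a limma fit of the 12 replicated arrays. A gene was called where its p, adjusted by Benjamini-Hochberg over all 19938 genes, was under 0.05.

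**Figure D1:**
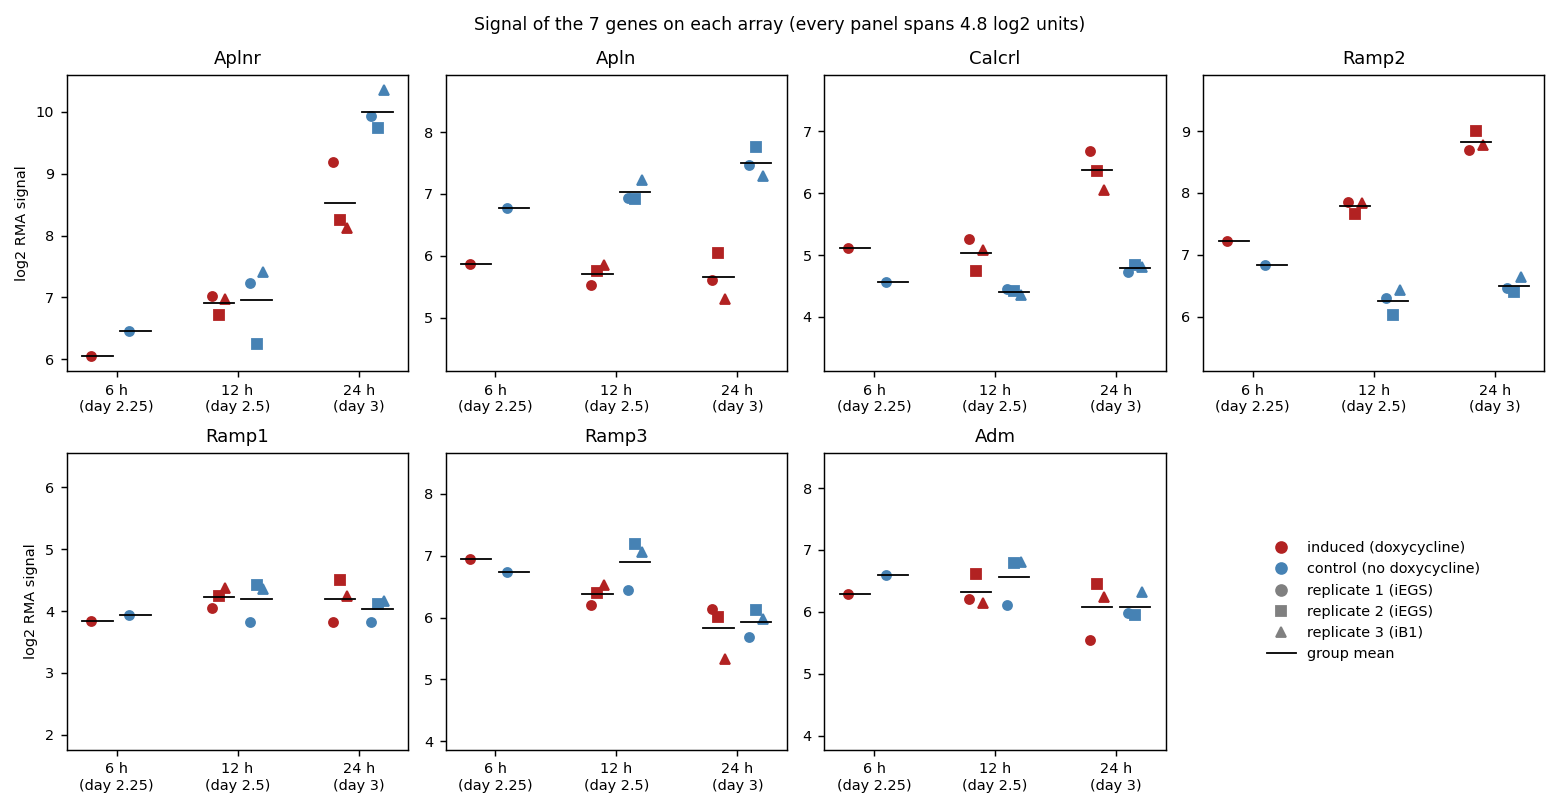
Log2 RMA signal of each gene on each of the 14 arrays, by time, with induced arrays (red) left of control arrays (blue), point shape for the replicate and a line for the group mean. The induced arrays of Ramp2 and Calcrl lie above, and those of Apln below, the control arrays at 12 h and 24 h, while the arrays of Ramp1 and Adm overlap at both times.

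Ramp2 was higher and Apln lower in induced cells at both replicated times, and at 24 h Calcrl was higher and Aplnr lower. At 12 h Ramp2 rose (2.90-fold) and Apln fell (2.49-fold). At 24 h Ramp2 (5.02-fold) and Calcrl (2.99-fold) were higher, and Apln (3.62-fold) and Aplnr (2.79-fold) were lower, than in the day 3 control. Ramp1, Ramp3 and the ligand gene Adm did not pass the test at 12 h or 24 h. Thus 2 of 7 genes were called at 12 h, where 1.39% of all genes were, 1 higher (0.813% of all genes) and 1 lower (0.577%). At 24 h 4 of 7 were called, where 5.46% of all genes were, 2 higher (2.03%) and 2 lower (3.43%). The median log2 change of the 7 genes was -0.05 at 12 h and -0.01 at 24 h, and that of all genes was -0.01 and -0.00404. In the fit that blocks on replicate number the 12 h test called 441 genes, against 277 without the block, and Ramp2 and Apln were again the members called.

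**Figure D2:**
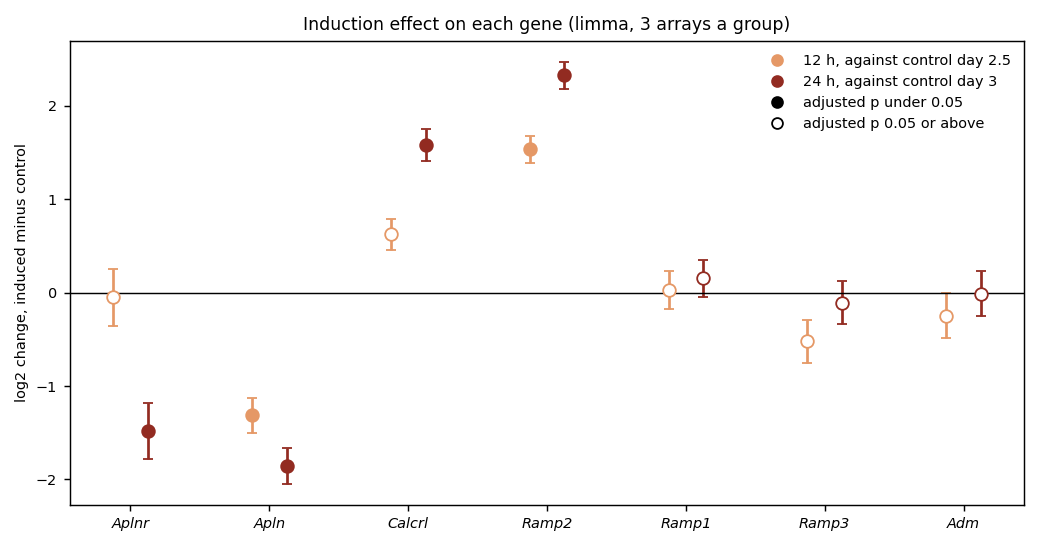
Log2 change, induced minus control, of each gene at 12 h (light) and 24 h (dark) with its standard error (3 arrays a group), filled where the limma adjusted p was under 0.05. Ramp2 shows the largest rise of the 7 genes at both times (1.54 and 2.33), and Apln the largest fall (-1.31 and -1.85).

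Ramp2, which encodes the partner that gives the Calcrl receptor its preference for adrenomedullin, had the largest induction effect of the 7 genes at 12 h and at 24 h. Its signal was 7.86, 7.67 and 7.85 on the induced 12 h arrays (replicates 1 to 3), against 6.31, 6.03 and 6.43 in the day 2.5 control. At 24 h the induced arrays had 8.70, 9.00 and 8.77, against 6.46, 6.39 and 6.64 in the day 3 control. Every induced array lay above every control array of its day, and the groups were farther apart at 24 h. Ramp2 rose by 1.54 ± 0.146 at 12 h, with a limma adjusted p of 4.2e-05. At 24 h it rose by 2.33 ± 0.146 (limma adjusted p = 2.78e-07). Paired by replicate number, the difference was 1.55, 1.64 and 1.42 at 12 h and 2.24, 2.61 and 2.13 at 24 h, with the smallest value of each set in the line iB1 (replicate 3). Without the outlying replicate 3 of the induced 24 h group the change at 24 h was 2.35 (limma adjusted p = 1.71e-06). The unused probe set, annotated to Ramp2 together with Malat1, had a mean signal of 12.8. It changed by 0.15 at 12 h and by 0.10 at 24 h, and which gene it reads was not tested.

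Within the induced cells Ramp2 rose further between 12 h and 24 h, by 1.03 ± 0.146 (limma adjusted p = 0.00206). This call was lost without replicate 2 (0.88, limma adjusted p = 0.153) and without replicate 3 (1.09, adjusted p = 0.0658). In the controls the signal had a mean of 6.50 ± 0.127 on day 3 and 6.25 ± 0.203 on day 2.5 (SD, n = 3 each), a change of 0.24 that did not pass (limma adjusted p = 0.943). After 6 h the single induced array had 7.22, against 6.84 in its control. The means thus ran, from high to low, induced 24 h, induced 12 h, control day 3 and control day 2.5, and only the arrays of these controls overlapped.

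Calcrl, the receptor gene itself, was also higher in induced cells. Its signal was 5.25, 4.75 and 5.08 on the induced 12 h arrays, against 4.44, 4.42 and 4.35 in the day 2.5 control. At 24 h the induced arrays had 6.69, 6.36 and 6.06, against 4.72, 4.84 and 4.81 in the day 3 control. The groups did not overlap at either time, and replicate 2 was the lowest induced array at 12 h. That array and every control array of both days lay under 4.95, the level below which genes were treated as dim. The mean of Calcrl over the 14 arrays was 5.10, above that level. The difference at 12 h was 0.62 ± 0.17 and did not pass over all genes (limma adjusted p = 0.122). It passed with array weights estimated from the spread of these same arrays (0.63, limma adjusted p = 0.00639). It also passed without replicate 1 of the induced 24 h group (0.62, limma adjusted p = 0.0429). At 24 h Calcrl rose by 1.58 ± 0.17 (limma adjusted p = 3.3e-05). The paired differences were 1.96, 1.52 and 1.25 at 24 h, and without replicate 3 of the induced 24 h group the change was 1.74 (limma adjusted p = 1.9e-05).

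Between 12 h and 24 h Calcrl rose in the induced cells by 1.34 ± 0.17 (limma adjusted p = 0.000797, but 0.138 without replicate 2). On the single day 2.25 arrays it stood at 5.11 after 6 h of induction, against 4.57 in the control. The day 3 control had a mean of 4.79 ± 0.0592 and the day 2.5 control 4.40 ± 0.0497 (SD, n = 3 each), and this difference of 0.39 did not pass (limma adjusted p = 0.694). From high to low the means ran induced 24 h, induced 12 h, control day 3 and control day 2.5. Only induced 12 h and control day 3 overlapped, through the induced replicate 2 at 4.75.

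ER71 is an ETS factor, and ETS factors bind sequences around GGAA. The 250 bases before an annotated start of each gene were therefore searched on both strands. For Calcrl and Ramp3 the start used lies inside the annotated span of the gene, so part of the searched sequence is within the gene. The motifs were AGGAAG for ETS factors, AGATAA for GATA factors and CAGATG for an E-box of the kind Scl binds. Each motif contains its own core. The set of RefSeq promoter sequences used here (GRCm38.p6) covered 5 of the 7 genes, namely Calcrl, Apln, Ramp1, Ramp3 and Adm. Those of Aplnr and Ramp2 were not in that set and were not searched. The ETS motif was found in 3 of the 5, those of Calcrl, Apln and Ramp3, and in 29.5% of all 32851 promoters in the table. The GATA motif and the E-box were found in 0 of the 5, against 10.0% and 14.4% of all promoters. The shorter cores were more common. The ETS core GGAA was in 5 of the 5 (93.4% of all promoters), the core GATA in 3 (53.6%) and the E-box core CANNTG in 3 (66.2%). The Calcrl promoter is shown as that of a gene that rose at 24 h and the Apln promoter as that of a gene that fell, and each held the ETS motif once. The Calcrl sequence covers chr2:84425267-84425516 on the minus strand and the Apln sequence chrX:48034854-48035103 on the minus strand, both written 5′ to 3′ up to the last base before the start, and capitals mark the motif, which reads CTTCCT where it lies on the other strand.
Calcrl: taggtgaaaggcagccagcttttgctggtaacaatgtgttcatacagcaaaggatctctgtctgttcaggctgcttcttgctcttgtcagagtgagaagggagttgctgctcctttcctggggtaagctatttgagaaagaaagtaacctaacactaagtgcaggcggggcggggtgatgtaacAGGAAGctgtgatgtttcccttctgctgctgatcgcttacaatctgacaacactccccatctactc
Apln: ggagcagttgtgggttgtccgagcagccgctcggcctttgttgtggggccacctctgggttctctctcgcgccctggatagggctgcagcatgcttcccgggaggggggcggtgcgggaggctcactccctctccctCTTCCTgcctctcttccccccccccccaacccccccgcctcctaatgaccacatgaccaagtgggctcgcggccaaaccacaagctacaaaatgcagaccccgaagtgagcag
The motif began 66 bases before the start used for Calcrl, which lies inside the annotated span of the gene, and 113 bases before that of Apln. The same letters thus lay before the starts used of a gene that was higher and a gene that was lower in induced cells. They also lay before that of Ramp3, which did not pass at either time. These matches are letters only, and no binding was measured here.

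Ramp1 and Ramp3, the other partners of the receptor, did not pass at 12 h or 24 h. Ramp3 had 6.21, 6.40 and 6.52 on the induced 12 h arrays, against 6.45, 7.20 and 7.06 in the day 2.5 control, a difference of -0.52 ± 0.229 (95% interval -1.01 to -0.03, limma adjusted p = 0.638). At 24 h it had 6.14, 6.01 and 5.33, against 5.69, 6.12 and 5.99, a difference of -0.11 ± 0.229 (95% interval -0.60 to 0.38, adjusted p = 0.861). The groups overlapped at both times, with replicate 1 the lowest control array on each day and replicate 3 the lowest induced array at 24 h. Between days Ramp3 was lower at the later time. Induced 24 h cells were 1.07 ± 0.229 lower than the day 2.5 control (limma adjusted p = 0.00928). This call was lost without replicate 2 (adjusted p = 0.168), without replicate 3 (0.261), without replicate 3 of the day 2.5 control (0.0514) and in a fit of the compared groups alone (0.0608). The day 3 control lay below the day 2.5 control by -0.97 ± 0.229 with no overlap, at a limma adjusted p of 0.0776, and this difference passed once replicate numbers entered the limma fit as a block (adjusted p = 0.0256).

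Ramp1 had the lowest mean signal of the 7 probe sets, 4.12 over the 14 arrays, under the level of 4.95 below which genes were treated as dim. RMA values of dim genes tend to understate changes. Over the 4 replicated groups Ramp1 ranged from 3.82 to 4.50, with every pair of groups overlapping. The difference was 0.03 ± 0.2 at 12 h (95% interval -0.40 to 0.46, adjusted p = 0.999 by limma) and 0.15 ± 0.2 at 24 h (95% interval -0.28 to 0.58, adjusted p = 0.759). On the single 6 h arrays Ramp1 had 3.85 in induced cells and 3.93 in the control, and Ramp3 had 6.94 in induced cells and 6.73 in the control.

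The change of Ramp2 was set against that of the other partners on the same arrays. The log2 signal of Ramp2 minus that of Ramp3 was on average 2.24 larger on induced than on control arrays (2.06 at 12 h and 2.43 at 24 h). For Ramp2 minus Ramp1 it was 1.84 larger (1.51 and 2.17). In an exact two-sided permutation test that exchanged induced and control labels within each day (6 arrays against 6, 400 regroupings), both gave p = 0.005, the smallest that this test can give (0.0075 adjusted over the 3 pairs of Ramp genes). When labels were exchanged only between arrays of the same day and replicate number (64 exchanges), both gave p = 0.0312, again the smallest possible (exact permutation, 0.0469 adjusted over the 3 pairs), and both were above 0 in 6 of 6 replicate pairs. Ramp3 minus Ramp1 differed by -0.40, with an exact permutation p of 0.045 within days (also 0.045 adjusted) and of 0.0625 within replicate pairs, so this difference did not hold. It was below 0 in 5 of 6 replicate pairs and 0.45 in replicate 1 at 24 h. For Ramp2 such differences show unequal change on the same arrays and say nothing of the amounts of the proteins. The same replicate numbers run through both days, and both permutation tests treat the days as independent. If a number marks the same experiment on both days, the 6 replicate pairs are not independent and these p-values may be too small. These tests were chosen after the values had been seen.

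Adm, the ligand gene of the Calcrl and RAMP receptors, showed no called change in any of the 6 comparisons fitted. Its signal was 6.22, 6.61 and 6.14 at induced 12 h, against 6.11, 6.80 and 6.80 in the day 2.5 control, and 5.54, 6.44 and 6.25 at induced 24 h, against 5.98, 5.95 and 6.33 in the day 3 control. Replicate 1 was low at induced 24 h and replicate 2 high, so the group spanned the day 3 control. The difference was -0.25 ± 0.243 at 12 h (95% interval -0.77 to 0.28, adjusted p = 0.999 by limma) and -0.01 ± 0.243 at 24 h (95% interval -0.53 to 0.51, adjusted p = 0.991). The interval at 24 h leaves out a 2-fold change in either direction. On the 6 h arrays Adm had 6.29 in induced cells and 6.60 in the control.

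Adm and Apln are both known as hypoxia-responsive genes in other settings, and 15 further hypoxia targets were read beside them. At 24 h 1 of the 15 rose, Egln3 (0.64, limma adjusted p = 0.0185), and 1 fell, Ndrg1 (-1.87, adjusted p = 6.13e-05), and at 12 h 0 were called by limma in either direction, with 3 at an unadjusted p under 0.05. The mean log2 signal of the 15 genes was 8.62 to 8.80 over the induced 24 h arrays and 8.80 to 8.92 over the day 3 control arrays. Its part in the change of Apln was not tested.

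Apln, the ligand gene of the apelin receptor, was lower in induced cells from the earliest time. The single induced 6 h array had 5.86, against 6.76 in its control, a 1.87-fold difference, the widest gap of the 7 genes at that time. None of the 7 reached 2-fold at 6 h, as 0.356% of all genes did. At 12 h the induced arrays had 5.52, 5.76 and 5.86, against 6.93, 6.92 and 7.22 in the day 2.5 control. At 24 h they had 5.60, 6.05 and 5.31, against 7.47, 7.75 and 7.29 in the day 3 control. No induced array reached the lowest control array of its day.

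At 12 h Apln fell by 1.31 ± 0.191, with a limma adjusted p of 0.00161. At 24 h it fell by 1.85 ± 0.191 (limma adjusted p = 2.19e-05). Paired by replicate the differences were -1.41, -1.17 and -1.36 at 12 h and -1.87, -1.71 and -1.98 at 24 h, so Apln was lower in every pair of both lines. In the controls Apln had a mean of 7.51 ± 0.233 on day 3 and 7.03 ± 0.169 on day 2.5 (SD, n = 3 each), a difference of 0.48 that did not pass (limma adjusted p = 0.561). Induced 24 h cells were also 1.37 ± 0.191 lower than the earlier day 2.5 control (limma adjusted p = 0.000352), with no overlap. From 12 h to 24 h of induction the signal differed by -0.06 (limma adjusted p = 0.936), and the arrays of these groups overlapped. The order of the means was control day 3, control day 2.5, induced 12 h and induced 24 h, with overlap only between the induced groups.

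Aplnr, the receptor gene, had a different course, with its largest difference between days. Its signal was 6.06 on the induced 6 h array, against 6.45 in the day 2.25 control. At 12 h it was 7.03, 6.72 and 6.98, against 7.23, 6.25 and 7.41 in the day 2.5 control, and at 24 h 9.19, 8.26 and 8.13, against 9.93, 9.74 and 10.35 in the day 3 control. The groups overlapped at 12 h, where replicate 2 of the control was lowest, and not at 24 h, where replicate 1 was the highest induced array. The change was -0.05 ± 0.305 at 12 h (95% interval -0.70 to 0.60, adjusted p = 0.999 by limma) and -1.48 ± 0.305 at 24 h (adjusted p = 0.00832). The call at 24 h was lost without replicate 3 (-1.11, limma adjusted p = 0.217), without replicate 2 (-1.48, adjusted p = 0.06) and without replicate 3 of the day 3 control (-1.31, adjusted p = 0.0524), and it held without replicate 3 of the induced 24 h group (-1.28, adjusted p = 0.0396).

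The paired differences of Aplnr at 24 h were -0.74, -1.48 and -2.22, so the iB1 pair (the third) differed most and every pair was lower in induced cells. The interaction of line and induction for Aplnr was estimated at -0.84 and did not pass (limma adjusted p = 0.943). It was fitted as a single term over 12 h and 24 h, and 0 of all genes were called for it. The line iB1 was replicate 3 alone, so line cannot be told apart from replicate. Over time Aplnr rose in both conditions. The day 3 control was 3.04 ± 0.305 above the day 2.5 control (limma adjusted p = 0.00023, 8.25-fold), and induced 24 h cells were 1.61 ± 0.305 above induced 12 h cells (adjusted p = 0.0138). This call between the induced times was lost without replicate 2 (1.65, limma adjusted p = 0.138), without replicate 3 (1.85, adjusted p = 0.0949), without replicate 2 or 3 of the induced 12 h group alone (1.52 and 1.65, adjusted p = 0.0754 and 0.0531) and when all probe sets were fitted (adjusted p = 0.0808). Induced 24 h cells also lay above the day 2.5 control, by 1.56 ± 0.305 (limma adjusted p = 0.00498, but 0.0772 without replicate 2). The signal of Aplnr at induced 24 h thus lay between those of the day 3 and the day 2.5 controls. Of the 7 genes, 1 was called between the control days, where 0.757% of all genes were.

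**Figure D3:**
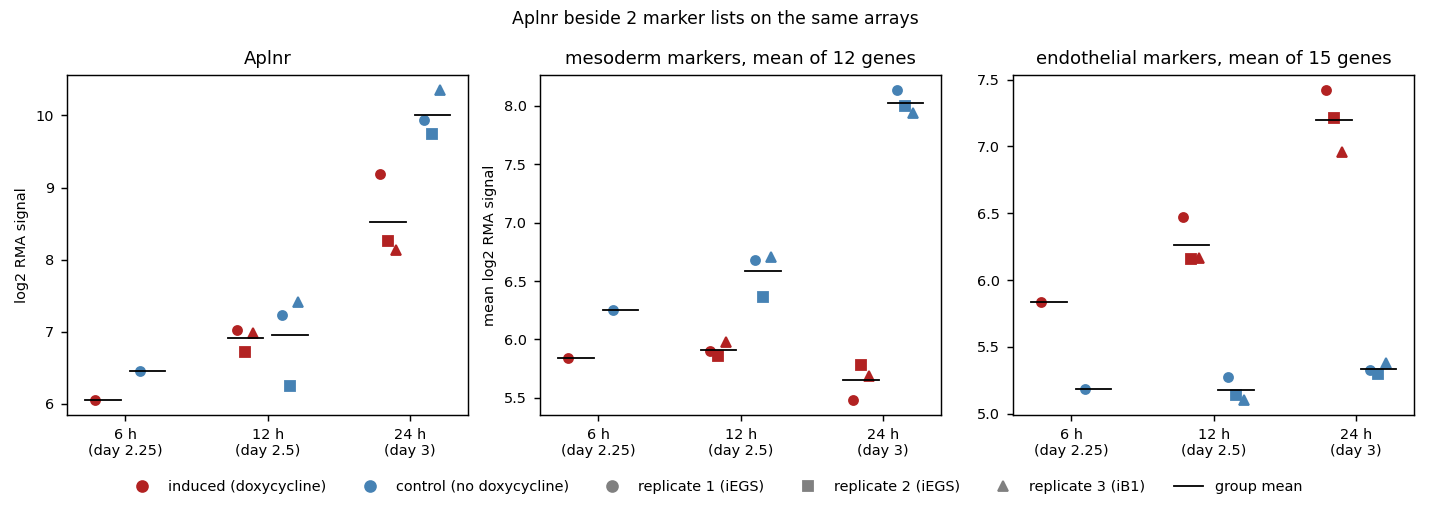
Log2 RMA signal of Aplnr (left) and mean log2 signal of 12 mesoderm markers (middle) and 15 endothelial markers (right) on each array, induced (red) left of control (blue), with point shape for the replicate and a line for the group mean. At 24 h the mesoderm mean lies at 5.48 to 5.78 on induced and 7.94 to 8.14 on control arrays, whereas Aplnr on the induced arrays (8.13 to 9.19) stays above its day 2.5 level.

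Aplnr is a gene of early mesoderm as well as of endothelium, and markers of both were read on the same arrays. Of 12 nascent and cardiac mesoderm markers measured, 3 fell and 0 rose at 12 h, and 10 fell and 0 rose at 24 h, with a median log2 change of -2.34 at 24 h. Between the control days 9 of them rose, with a median of 1.29. Between induced 24 h and induced 12 h cells 0 rose and 1 fell, with a median of -0.10 and a range of -1.62 to 1.28. Aplnr (1.61) was called higher in this last comparison, a call lost in the alternatives given above, and the highest marker (1.28) was not called. Of 15 endothelial markers, 9 rose and 0 fell at 12 h, and 9 rose and 0 fell at 24 h. The genes that rose differed in that Kdr was called only at 12 h (1.96, limma adjusted p = 0.000787) and Tie1 only at 24 h (1.11, adjusted p = 0.00419). Kdr also rose between the control days (2.02, limma adjusted p = 0.0016). The mean log2 signal of the 15 was 6.96 to 7.42 on the induced 24 h arrays and 5.30 to 5.38 on the day 3 control arrays. The ETS factor gene Fli1 (4.27), the angiopoietin receptor gene Tek (4.10) and Sox7 (3.92) changed most of the 15 at 24 h, whereas Pecam1 (0.81), Kdr (0.62), Emcn (0.32), Cldn5 (0.19), Sox17 (0.05) and Robo4 (-0.02) did not pass (limma adjusted p between 0.252 and 0.976). The labelled tissue is embryonic stem cell, and of 9 pluripotency and epiblast markers 0 rose and 6 fell at 24 h. Their mean log2 signal was 6.65 to 7.17 on the induced 24 h arrays and 8.02 to 8.46 on the day 3 control arrays. The part of any of these lists in the changes of Aplnr, Apln, Calcrl or Ramp2 was not tested. In these bulk samples a change in the number of cells that express a gene cannot be told apart from a change of its RNA per cell.

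Other cell types were read in the same way. Beside these lists and those above, 0.813% of all genes rose and 0.577% fell at 12 h, and 2.03% rose and 3.43% fell at 24 h. Of 4 lymphatic endothelial markers, a cell type in which adrenomedullin signalling is also known to act, Flt4 rose (1.06, limma adjusted p = 0.0268) and Prox1 fell (-1.10, adjusted p = 0.00306) at 24 h, and Lyve1 (0.14) and Pdpn (-0.26) did not pass. Of 9 blood progenitor markers 3 rose at 12 h and 7 at 24 h, and 0 fell. Of 11 fibroblast feeder markers 0 were called by limma at 12 h (1 had an unadjusted p under 0.05), and Thy1 rose (0.98, limma adjusted p = 0.0342) and Twist1 fell (-1.15, adjusted p = 0.00874) at 24 h. The mean of these 11 was 4.98 to 5.20 on the induced 24 h arrays and 5.03 to 5.20 on the day 3 control arrays. Of 7 visceral endoderm markers 0 rose at 24 h and 2 fell, Foxa2 (-3.53) and Cer1 (-5.28). The others did not pass and lay slightly above 0, namely Ttr (0.27), Afp (0.23), Hnf4a (0.19), Apoa1 (0.15) and Sox17 (0.05).

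Whether the effect of induction changed between 12 h and 24 h was tested by its own contrast. None of the 7 genes passed (limma), against 0.426% of all genes, and 3 of them had an unadjusted p under 0.05. These were Calcrl (0.96 ± 0.24, adjusted p = 0.162), Ramp2 (0.79 ± 0.207, adjusted p = 0.188) and Aplnr (-1.43 ± 0.431, adjusted p = 0.328). With array weights all 3 passed (limma adjusted p = 0.0125 for Calcrl, 0.00334 for Ramp2 and 0.0433 for Aplnr). In that fit the induced 24 h arrays had weights of 0.27, 3.33 and 0.32 (replicates 1 to 3), so this group rested mostly on replicate 2. Calcrl also passed without replicate 3 of the induced 24 h group (1.11, limma adjusted p = 0.0462). For Apln the effect differed by -0.54 ± 0.27 (adjusted p = 0.902). Between induced 24 h and induced 12 h cells 3 of the 7 were called, all higher (Aplnr, Calcrl and Ramp2), where 1.81% of all genes were called. Between induced 24 h cells and the day 2.5 control 5 of 7 were called, where 6.33% of all genes were. Aplnr, Calcrl (1.97) and Ramp2 (2.57) were higher there, and Apln and Ramp3 were lower.

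Further genes of both pathways were read from a list of 36 genes, of which 31 had a probe set of their own. At 12 h 0 rose and 1 fell, Apela, where 0.813% of all genes rose and 0.577% fell. At 24 h 2 rose and 6 fell, where 2.03% of all genes rose and 3.43% fell, and 23 did not pass. The median log2 change of the 31 at 24 h was -0.05.

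Apela, which encodes the second ligand of the apelin receptor, was lower in induced cells at both replicated times. Its signal was 7.81, 7.60 and 7.84 at induced 12 h, against 9.10, 8.62 and 8.76 in the day 2.5 control, and 6.94, 6.56 and 6.41 at induced 24 h, against 8.75, 8.90 and 8.77 in the day 3 control. The groups did not overlap at either time, and in the controls the level was nearly the same on both days, with a change of -0.02. The log2 change was -1.08 ± 0.167 at 12 h, with a limma adjusted p of 0.00252. At 24 h it was -2.17 ± 0.167 (limma adjusted p = 1.43e-06). After 6 h it was at 8.34 in induced cells and 9.10 in the control, a difference of -0.76. Both known ligand genes of the receptor thus fell at 12 h and at 24 h. Of the other peptide genes measured, Adm2 (0.24), Calcb (-0.11) and Iapp (0.14) did not pass at 24 h.

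Among receptors, Ackr3, which encodes an atypical receptor that takes up chemokines and adrenomedullin, fell at 24 h by 1.48 ± 0.188 (limma adjusted p = 0.000162). It had 4.49, 3.92 and 4.16 on the induced 24 h arrays, against 5.76, 5.43 and 5.82 in the day 3 control, with no overlap. Calcr, the calcitonin receptor gene and closest relative of Calcrl, fell by 0.80 ± 0.162 (adjusted p = 0.0072), to 4.70, 4.45 and 4.79 in induced cells, against 5.28, 5.40 and 5.68 in the control. Calcr also fell between the control days (-0.80, limma adjusted p = 0.0341), so it was lower with time and lower again with induction. For both Ackr3 and Calcr the induced 24 h arrays lay under 4.95, the level below which genes were treated as dim. The receptor gene Gpr182 (0.09) and the angiotensin receptor genes Agtr1a (-0.05) and Agtr2 (0.20), relatives of Aplnr, did not pass.

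Downstream of the receptors, Arrb2, which encodes beta-arrestin 2, an adaptor that binds activated receptors, rose at 24 h by 0.95 ± 0.125 (limma adjusted p = 0.000201), while Arrb1 stood at -0.05 and did not pass. Gnai1 encodes an inhibitory G protein subunit of the class through which the apelin receptor signals. It was 1.12 ± 0.163 lower than in the day 3 control (adjusted p = 0.000493), and Gnai2 (0.19) and Gnai3 (-0.22) did not pass. Adcy6, an adenylyl cyclase gene, was 0.56 ± 0.122 lower (adjusted p = 0.0121). Between the control days Gnai1 changed by 0.75, Adcy6 by 0.38 and Arrb2 by -0.55, none of them called (limma adjusted p = 0.052, 0.327 and 0.0661). From induced 12 h to induced 24 h cells Gnai1 changed by -0.10, Adcy6 by -0.01 and Arrb2 by 0.26, also not called. Ece1, a peptidase gene known for endothelin processing, rose by 0.62 ± 0.134 (adjusted p = 0.0118). Rgs5, a regulator of G protein signalling, was 1.35 ± 0.164 lower (adjusted p = 0.000106). Pam, whose enzyme amidates adrenomedullin, and Furin, whose protease cleaves proapelin, stood at -0.02 and -0.05.

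**Figure D4:**
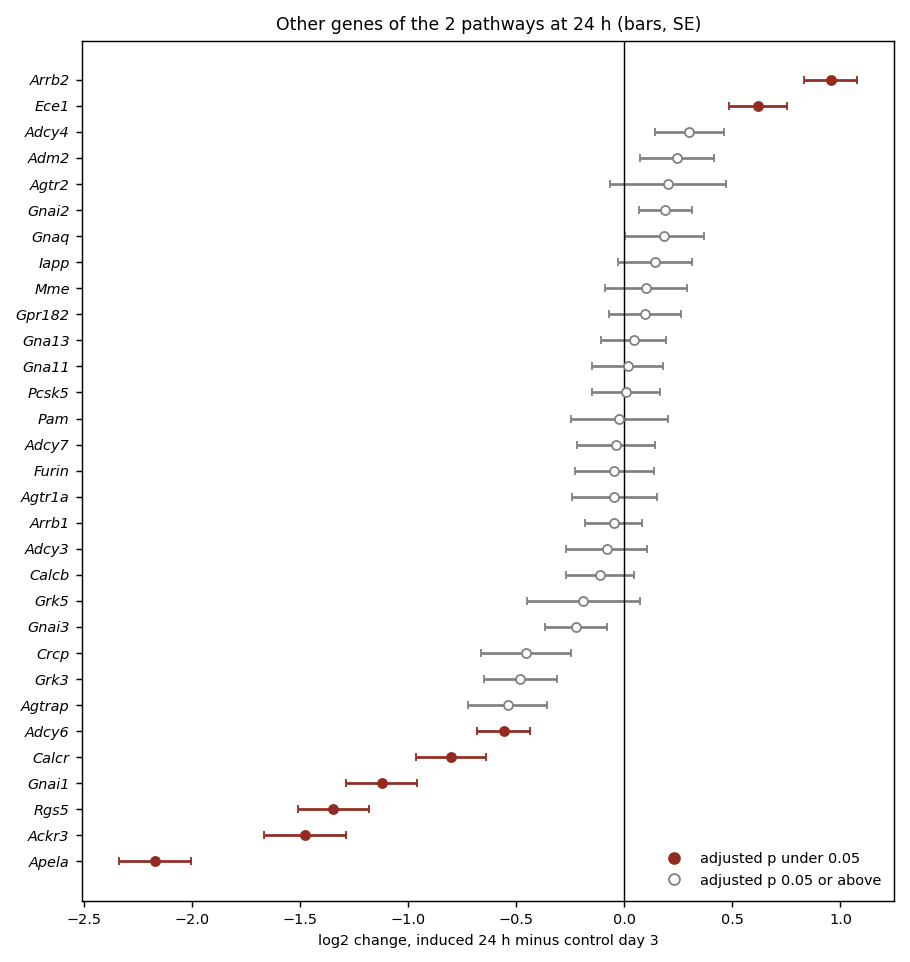
Log2 change at 24 h, induced minus day 3 control, of the 31 further pathway genes measured, with standard errors (3 arrays a group), filled where the limma adjusted p was under 0.05. Apela (-2.17) lies lowest and Arrb2 (0.95) highest, and 23 of the 31 did not pass.

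The genes whose signal followed each of the 7 most closely were found by Pearson correlation over the 14 arrays, for genes with a mean signal above the median of all genes. The 14 arrays share their groups and their processing, and the correlations are given as a description. Ramp2 was most like Itm2a (r = 0.985), Npl (0.982) and Creg1 (0.981). Once group means were taken away, over the 12 replicated arrays, r with Ramp2 was 0.852 for Itm2a, 0.160 for Npl and 0.581 for Creg1. Apln was most like Rtl8c (0.972), Igfbp3 (0.959) and Fgf8 (0.957), which at 24 h changed by -2.05, -3.54 and -1.59. Aplnr was most like Peg3 (0.946), Adssl1 (0.945) and the BMP ligand gene Bmp2 (0.944). Bmp2 changed by 1.94 between the control days and by -1.12 at 24 h. With group means taken away, r with Aplnr was 0.467 for Peg3, 0.587 for Adssl1 and 0.822 for Bmp2. With Apln it was 0.708 for Rtl8c, 0.314 for Igfbp3 and 0.719 for Fgf8.

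For Ramp3 the closest genes were Acsl4 (0.938), Serpini1 (0.912) and Mapk12 (0.904), and for Adm they were Bdnf (0.877), Slco4a1 (0.875) and Lrrc15 (0.869). Calcrl lay under the median signal, so its neighbours were looked up after its values had been seen. They were Cdh5 (0.975), BC028528 (0.975) and Plxnd1 (0.968), of which Cdh5 is an endothelial marker of the list above. The choice of closest genes depended on the measure. By Spearman rank correlation 0 of these 3 stayed among the closest 3 for Calcrl, 1 of 3 for each of Aplnr, Apln, Ramp2 and Adm, and 2 of 3 for Ramp3. Over the 12 replicated arrays alone 1 of 3 stayed for Calcrl and Adm, 2 of 3 for Ramp2, and 3 of 3 for Aplnr, Apln and Ramp3. Among the 7 genes themselves, Calcrl and Ramp2 had an r of 0.907 over the 14 arrays and of 0.07 once group means were taken away over 12, so the arrays of a group gave no shared order for them. Apln and Ramp2 had an r of -0.840 over the 14 arrays and of 0.265 within groups.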

How the data were processed

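The table the authors deposited gives log2 signals of 35556 probe sets for each of 14 arrays. Expression Console and RMA are the tools named, per the submitters' processing notes. Their versions, and the set of arrays that entered one normalization, are not stated in what was used here. RMA removes a change shared by most genes. Arrays give no counts, so their number limits the precision. Of the probe sets 21789 had 1 gene symbol, and 19938 genes remained after keeping the brightest of each gene.

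limma 3.58.1 in R 4.3.3 was fitted to the 12 arrays of the 4 groups of 3 (lmFit and eBayes, group means, 8 residual and 6.05 prior degrees of freedom). The code was tested on simulated data. The day 2.25 groups had 1 array each and no test. Intervals are limma's 95% intervals. The design text speaks of independent experiments. Within a day, same-numbered arrays shared their deviations from the group mean (r of 0.573, 0.344 and 0.262 at 12 h, and 0.517, 0.157 and 0.261 at 24 h), so the numbers were read as pairs.

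Named genes are the 7 members, the 36 listed pathway genes and the 3 genes most like each member of above-median signal. Members and lists were chosen with earlier results of these data known. A probe set with 1 symbol was found for 31 of the 36 pathway genes and 12 of the 13 mesoderm markers, and the rest were not analysed here. Ero1l was read as Ero1a. Promoters are from RefSeq (GRCm38.p6). The array's genome build is not stated in what was used here, so the only positions given are those of the promoter sequences shown. Alternatives were a replicate block, other scalings and filters, array weights (gene by gene), the line as a covariate and leaving out arrays.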

Additional observations from a re-analysis of the deposited data

Results flagged for a closer look

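Rgs5, of the further pathway genes, was the only gene among the 7 and the 31 listed whose induction effect differed between 12 h and 24 h by its own test. The effect at 24 h minus that at 12 h was -1.45 ± 0.232 (limma adjusted p = 0.011). On the induced 24 h arrays it had 3.66, 3.49 and 3.89, against 5.25, 4.69 and 5.14 in the day 3 control, and on the induced 12 h arrays 3.70, 3.55 and 3.56, against 3.52, 3.61 and 3.38 in the day 2.5 control. Rgs5 rose between the control days by 1.52 (limma adjusted p = 0.000341), and the induced groups overlapped. Outside the day 3 control every array lay under 4.95, the level below which genes were treated as dim. This limits what fall could be seen at 12 h.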

How the results depend on the processing

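The calls of Ramp2 and Apln at 12 h and 24 h, of Calcrl at 24 h and of Aplnr between the control days kept their direction and stayed under the threshold in all alternatives run. Differences that had not passed did turn in sign with arrays left out, among them Aplnr at 12 h (-0.41 to 0.17), Ramp3 at 24 h (-0.38 to 0.17) and Adm at 24 h (-0.26 to 0.26). The call of Aplnr at 24 h was lost without replicate 2, without replicate 3 and without replicate 3 of the day 3 control, over a range of -1.85 to -1.11 with arrays left out. Calcrl at 12 h passed with array weights (0.63) and without replicate 1 of the induced 24 h group, with a range of 0.51 to 0.77. Ramp3 between the control days passed with the replicate number as a block (-0.97), with dim genes left out (-0.97), with array weights (-1.003) and without some arrays, with a range of -1.20 to -0.82. The causes were not tested.

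Counts of called genes also moved. With the replicate number as a block, which uses the pairing, 441 genes passed at 12 h, 163 for the change of effect, 344 between the control days, 742 between the induced times and 2187 between induced 24 h and control day 2.5, and these lists held every gene called without it. The block moved no other call of the 7 genes. With array weights (gene by gene, since the REML method did not converge) these counts were 798, 318, 471, 1496 and 4092, and 2638 at 24 h. With only the groups compared in the fit, 669 passed at 24 h, 100 between the induced times and 679 between induced 24 h and control day 2.5. Fitting all probe sets gave 39 for the change of effect, 71 between the control days and 174 between the induced times, and a second quantile normalization gave 129 for the change of effect. With arrays left out the counts ran from 80 (without replicate 2) to 366 at 12 h, 392 (without replicate 2) to 1889 at 24 h, 2 (without replicate 3) to 109 for the change of effect, 17 (without replicate 3) to 238 between the control days, 21 (without replicate 2) to 727 between the induced times, and 487 (without replicate 2) to 2604 between induced 24 h and control day 2.5. Each highest count was without replicate 1 of the induced 24 h group. Ramp1 was dim, which limits what could be seen in it, and 1 array a group at 6 h allows no test.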
